A study of Mus musculus with 6 samples.

Results

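Among the transcripts of OSGEP-depleted B16F10 melanoma cells, a group of 9 genes was low in control cells and higher in every knockdown library: Atp2a3, P2rx3, Pkhd1, Apobr, Fam220a, Lhfpl2, Cyb5r2, Cyp1b1 and Gm15663. They were selected on the measured values themselves, since each had to be higher in all 3 shOSGEP libraries than in all 3 shCtr libraries in CPM (counts scaled to library size). Of the 55487 rows of the count table, 10 carry 1 of these 9 symbols and 9 meet that condition, 1 for each symbol. In plain CPM the same condition was met by 1000 rows of the table. Because the contrast chose the genes, their levels and differences below are a description and carry no test.

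The B16F10 line was derived from a mouse melanoma. Cells of 3 independent infections received a control shRNA (shCtr, labelled WT, n = 3), and cells of 3 infections received the OSGEP hairpin that the labels number 2 (shOSGEP, labelled KD OSGEP, n = 3). All 6 libraries hold polyA RNA of cells that carry an shRNA, from 1 cell line, 1 control and 1 hairpin, so an effect of the hairpin other than on Osgep cannot be told apart from the depletion. The libraries held 18915587 to 29487384 estimated counts each. In a polyA library of cultured cells, a higher level can mean more expressing cells or more RNA per cell, and these cannot be told apart.

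Within KEOPS, OSGEP is the enzyme that adds threonylcarbamoyladenosine (t6A) to tRNAs reading codons starting with A (ANN codons). The 9 genes do not form a single pathway. Atp2a3 encodes a calcium pump of the endoplasmic reticulum and P2rx3 an ATP-gated cation channel best known from sensory neurons, Pkhd1 encodes the ciliary membrane protein fibrocystin, Apobr a receptor for apolipoprotein B-containing lipoproteins, Lhfpl2 a tetraspan membrane protein, and Cyb5r2 and Cyp1b1 are redox enzymes, whereas Fam220a encodes a STAT3-binding protein and Gm15663 is a noncoding transcript.

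The targeted gene was measured first. Osgep was at 20.6, 58.6 and 21.8 CPM in shCtr replicates 1, 2 and 3 and at 4.28, 0.542 and 5.52 CPM in shOSGEP replicates 1, 2 and 3, where CPM here and below are scaled by the TMM method. Every shOSGEP library was below every shCtr library, and replicate 2 had the highest control and the lowest knockdown value. The Log2FC was -3.29 (SE 0.876), and within replicate numbers the log2 ratio was -2.27, -6.76 and -1.98.

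The promoters of 4 of the genes are shown because they hold letters that a search for 4 kinds of factor motif found. RefSeq (GRCm38.p6) gave a promoter for 8 of the 9 genes, from 250 bases before to 50 bases after the start. Of these, the 250 bases before the RefSeq start are printed 5′ to 3′ on the strand of the gene, with the matches in capitals. RefSeq and GENCODE place some starts differently. The printed bases of Gm15663, with all its matches, lie inside the GENCODE gene span given below. Those of Apobr and Fam220a reach into that span only at their 3′ end, past their matches. The first 3 hold the core letters of the aryl hydrocarbon receptor motif, GCGTG on either strand, in Cyp1b1 (chr17:79715062-79715311, minus strand), Gm15663 (chr10:105574301-105574550, plus strand) and Fam220a (chr5:143548470-143548719, plus strand), and the last holds an AP-1 motif in Apobr (chr7:126584758-126585007, plus strand).
Cyp1b1: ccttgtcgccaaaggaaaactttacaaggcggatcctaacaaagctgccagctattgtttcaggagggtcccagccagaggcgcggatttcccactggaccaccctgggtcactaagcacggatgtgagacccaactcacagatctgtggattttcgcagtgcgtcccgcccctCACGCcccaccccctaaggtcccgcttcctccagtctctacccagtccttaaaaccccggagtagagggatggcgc
Gm15663: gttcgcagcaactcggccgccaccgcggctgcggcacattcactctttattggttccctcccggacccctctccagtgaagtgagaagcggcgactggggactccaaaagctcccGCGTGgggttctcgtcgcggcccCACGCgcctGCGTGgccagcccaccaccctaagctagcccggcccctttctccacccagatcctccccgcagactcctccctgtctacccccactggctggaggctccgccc
Fam220a: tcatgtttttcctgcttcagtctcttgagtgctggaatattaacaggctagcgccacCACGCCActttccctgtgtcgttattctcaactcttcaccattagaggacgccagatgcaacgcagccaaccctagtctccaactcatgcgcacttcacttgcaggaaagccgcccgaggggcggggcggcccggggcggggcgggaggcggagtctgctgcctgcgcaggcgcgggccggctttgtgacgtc
Apobr: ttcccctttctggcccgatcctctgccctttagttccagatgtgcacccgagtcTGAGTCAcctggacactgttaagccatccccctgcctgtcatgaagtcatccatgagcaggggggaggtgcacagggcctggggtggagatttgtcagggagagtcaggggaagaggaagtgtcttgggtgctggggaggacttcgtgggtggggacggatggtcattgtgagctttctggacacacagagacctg

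GCGTG was found in 3 of the 8 promoters, against 32.4% of all 32851 promoters of the same length. The longer form TNGCGTG was found in 1 of 8, that of Fam220a, where it overlaps the core match, against 5.07% of all promoters. The Fam220a promoter was looked up by symbol. It lies at the start of both Fam220a entries described below, of which only 1 met the condition. The AP-1 motif TGANTCA stood in 1 of 8 (7.81% of all), the ATF4 motif TGATGNAA in 1 of 8 (Cyb5r2, 12 to 19 bases after the start, against 3.97%) and the IRF motif GAAANNGAA in 0 of 8 (8.56%). All motifs were searched on both strands. A match describes these letters only and is not a measured binding site.

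Atp2a3 (ENSMUSG00000020788, chromosome 11, 72961169 to 72993044, plus strand, GRCm38), the calcium pump SERCA3, had 1, 3 and 4 counts in the shCtr libraries and 37, 180 and 15 in the shOSGEP libraries. This was 0.0425, 0.147 and 0.184 CPM against 1.72, 6.98 and 0.636 CPM. The control libraries were close to the floor of 3 counts, and the lowest shOSGEP library was 3.45 times the highest shCtr library. Group means were 0.125 ± 0.0736 CPM in shCtr and 3.11 ± 3.39 CPM in shOSGEP (SD, n = 3), and the fitted Log2FC was 4.60 (SE 1.08). Since the controls held so few counts, the ratios within replicate numbers were wide: 40.5 (95% counting interval 6.83 to 1643), 47.3 (15.9 to 232) and 3.45 (1.10 to 14.3).

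P2rx3 (ENSMUSG00000027071, chromosome 2, 84998583 to 85037462, minus strand) was at 0.637, 1.18 and 0.323 CPM in shCtr and 7.44, 35.6 and 1.87 CPM in shOSGEP. Its shOSGEP replicate 3 came closest to the controls, 1.58 times the highest of them, which was the smallest gap among the 9 genes. The mean was 0.713 ± 0.434 CPM in shCtr against 14.96 ± 18.1 CPM in shOSGEP (SD, n = 3), and the Log2FC was 4.38 (SE 1.12). Of genes known from neurons, the tubulin gene Tubb3 was at 202 to 604 CPM in shCtr and 179 to 447 CPM in shOSGEP, the intermediate filament gene Prph was at 0.425 to 3.10 CPM and 0.419 to 1.23 CPM, and Snap25 and Calca had no count in any library. The part of neuronal transcripts in the P2rx3 level was not tested.

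Pkhd1 (ENSMUSG00000043760, chromosome 1, 20057779 to 20618064, minus strand) encodes fibrocystin, the protein altered in recessive polycystic kidney disease. Its levels were 0.425, 0.295 and 0.599 CPM in shCtr and 3.26, 19.1 and 1.78 CPM in shOSGEP. Replicate 2 was the lowest of the controls and the highest of the knockdown libraries, and the gap between groups was 2.97-fold. The Log2FC was 4.18 (SE 1.01). The epithelial marker Epcam had no count in any library, and the 6 epithelial markers together reached 0.246 to 0.722 CPM in shCtr and 0.388 to 0.884 CPM in shOSGEP.

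Apobr (ENSMUSG00000042759, chromosome 7, 126584942 to 126589112, plus strand), known from lipoprotein uptake by macrophages, was at 1.91, 1.57 and 2.35 CPM in shCtr and 9.58, 38.3 and 6.07 CPM in shOSGEP. The control libraries were close to each other, and the lowest shOSGEP library was 2.58 times the highest of them. The Log2FC was 3.20 (SE 0.775). The leukocyte markers Ptprc, Cd3e and Itgam had no count in any library, and the 8 leukocyte markers summed to 5.21 to 9.54 CPM in shCtr and 4.22 to 5.47 CPM in shOSGEP.

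Lhfpl2 (ENSMUSG00000045312, chromosome 13, 94057796 to 94195409, plus strand) was the most highly expressed of the group per kb of transcript in both conditions. Its levels were 11.1, 8.55 and 9.59 CPM in shCtr and 44.9, 90.8 and 23.2 CPM in shOSGEP. The shCtr libraries varied least for this gene (coefficient of variation 13.1%), and the gap between groups was 2.10-fold. The Log2FC of 2.44 (SE 0.569) was the smallest among the 9 genes.

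Of the redox enzymes, Cyb5r2 (ENSMUSG00000048065, chromosome 7, 107748455 to 107758032, minus strand), a reductase of cytochrome b5, was at 4.42, 5.80 and 3.27 CPM in shCtr and 19.8, 63.8 and 12.1 CPM in shOSGEP. The gap between the groups was 2.09-fold and the Log2FC 2.83 (SE 0.702). Cyp1b1 (ENSMUSG00000024087, chromosome 17, 79701537 to 79715061, minus strand), a cytochrome P450 that metabolises oestradiol and polycyclic hydrocarbons, had 3, 1 and 2 counts in shCtr and 12, 42 and 11 in shOSGEP. All 3 control libraries were thus at or under the floor of 3 counts. In CPM these were 0.127, 0.0492 and 0.0922 against 0.558, 1.63 and 0.467, a gap of 3.66-fold. The ratios within replicate numbers were 4.38 (95% counting interval 1.18 to 24.2), 33.1 (5.63 to 1339) and 5.06 (1.10 to 47.0), and the Log2FC was 3.22 (SE 0.802).

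Gm15663 (ENSMUSG00000085282, chromosome 10, 105573953 to 105583874, plus strand), annotated as a processed transcript without a coding sequence, was at 0.850, 0.492 and 0.692 CPM in shCtr and 3.86, 5.50 and 2.84 CPM in shOSGEP. Its knockdown libraries were the most alike of the 9 genes (coefficient of variation 33.0%), and the gap between groups was 3.35-fold. The Log2FC was 2.57 (SE 0.577).

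**Figure D1:**
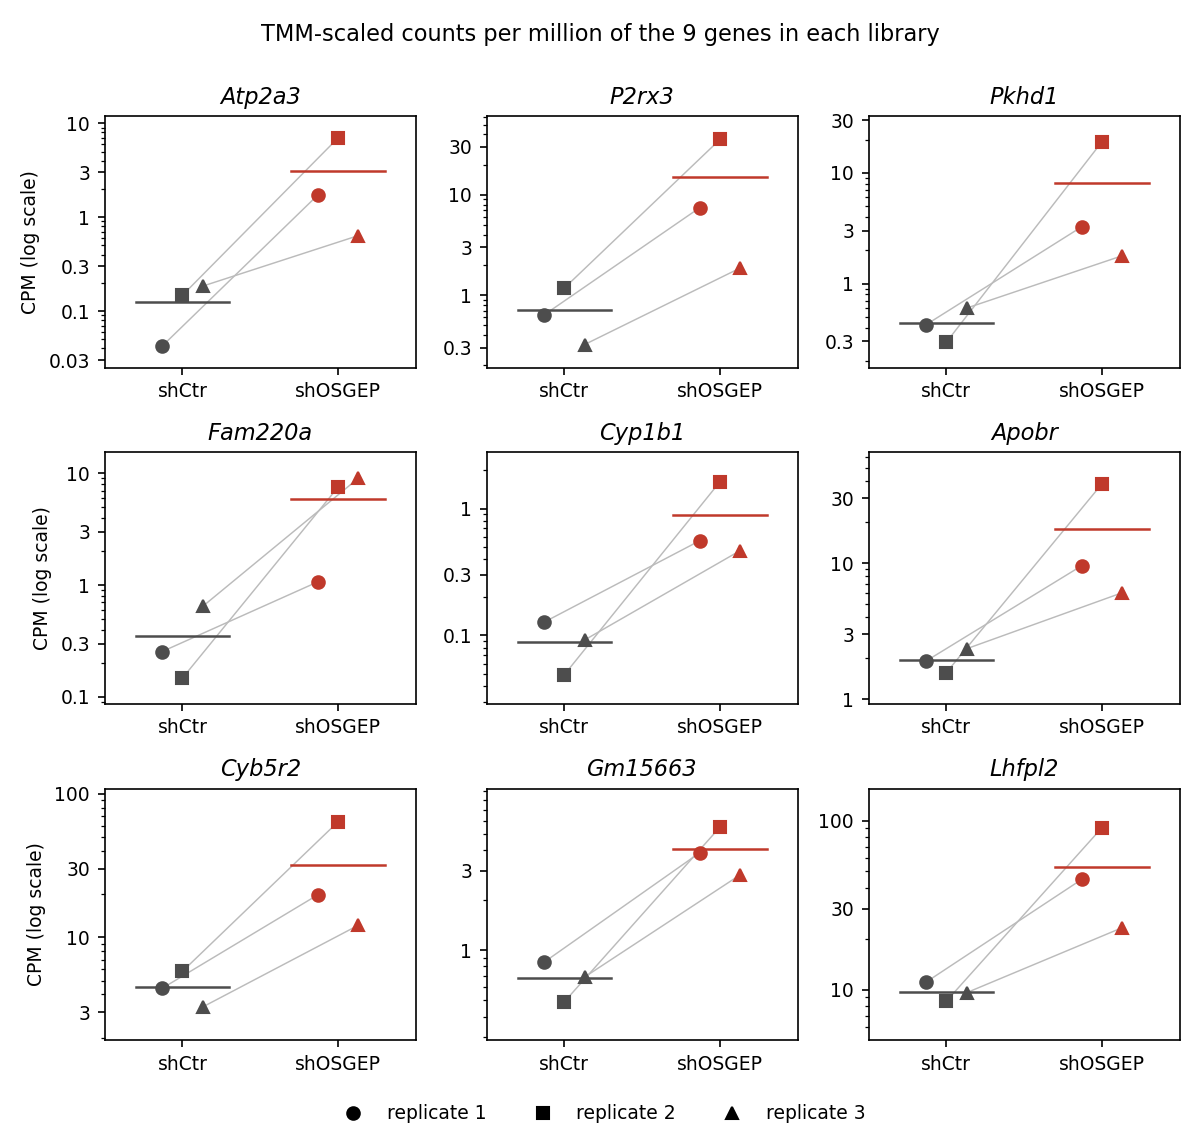
Level of each of the 9 genes in each library, in TMM-scaled CPM on a log axis. Points are libraries, with a symbol for each replicate number, grey lines join same-numbered libraries, and horizontal bars are group means (n = 3). In every panel all 3 shOSGEP points lie above all 3 shCtr points, which the selection required in plain CPM. Replicate 2 of shOSGEP is highest except for Fam220a.

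Fam220a had 2 entries in the table, and only ENSMUSG00000083012 met the condition. This entry had 6, 3 and 14 counts in shCtr and 23, 194 and 213 in shOSGEP, or 0.255, 0.147 and 0.646 CPM against 1.07, 7.52 and 9.04 CPM, giving a Log2FC of 4.05 (SE 0.969). The other entry, ENSMUSG00000118332, was at 31.9, 51.7 and 38.2 CPM in shCtr and 34.3, 61.8 and 28.9 CPM in shOSGEP. For that entry the groups overlapped, with a lowest shOSGEP library at 0.560 times the highest shCtr library and a Log2FC of 0.04 (SE 0.455).

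Both Fam220a entries span the same stretch of chromosome 5 on the plus strand, 143548708 to 143564531 and 143548706 to 143564531. Of the 31-base words in the transcripts of the first entry, 60.4% also occur in the second, and 98.8% of the words of the second occur in the first, so a read can often be assigned to either. The first entry took 0.794%, 0.285% and 1.66% of the summed counts of both in shCtr and 3.02%, 10.8% and 23.8% in shOSGEP. Summed, the gene was at 32.1, 51.8 and 38.9 CPM in shCtr and 35.4, 69.3 and 38.0 CPM in shOSGEP, so that the groups overlapped. The higher value of Fam220a in the knockdown therefore describes 1 annotation entry and not the locus.

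**Figure D2:**
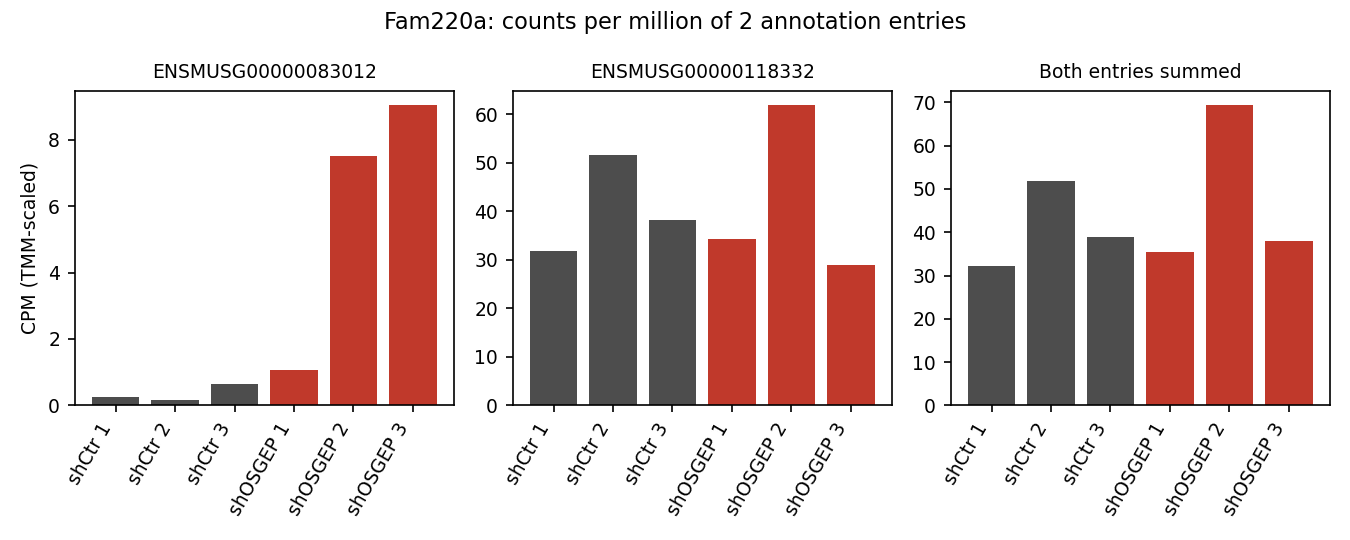
TMM-scaled CPM of the 2 Fam220a entries and of their sum in each library, as bars from 0 with a separate axis for each panel. The first entry is at most 0.646 CPM in shCtr and at least 1.07 CPM in shOSGEP, while the second entry and the sum overlap between the groups.

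For the other 8 genes, the shared sequence was a smaller share. The 31-base words found in other genes made up 12.6% for Apobr (10.7% in Cln3), 5.82% for Gm15663, 3.58% for Cyb5r2, 1.27% for Pkhd1, under 0.5% for Atp2a3, P2rx3 and Lhfpl2, and 0% for Cyp1b1.

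The word low in the description of the group was checked per transcript length. In shCtr, 7 of the 9 genes were in the lowest 10% of the 12669 tested genes by mean CPM per kb, and the remaining 2, Cyb5r2 and Lhfpl2, were at percentiles 20.9 and 25.3. The lowest was Cyp1b1, at 0.0175 CPM per kb in shCtr, and the highest was Lhfpl2, at 2.24 CPM per kb, against a median of 7.68 CPM per kb over all tested genes. In shOSGEP, 3 of the 9 were above the median gene (Lhfpl2 at percentile 62.7, Cyb5r2 at 61.2 and P2rx3 at 51.6), and Cyp1b1 stayed at percentile 1.95. A filter on low counts kept all 9 genes, but 5 of them had under 10 counts in at least 1 shCtr library and passed through the libraries in which they were high.

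**Figure D3:**
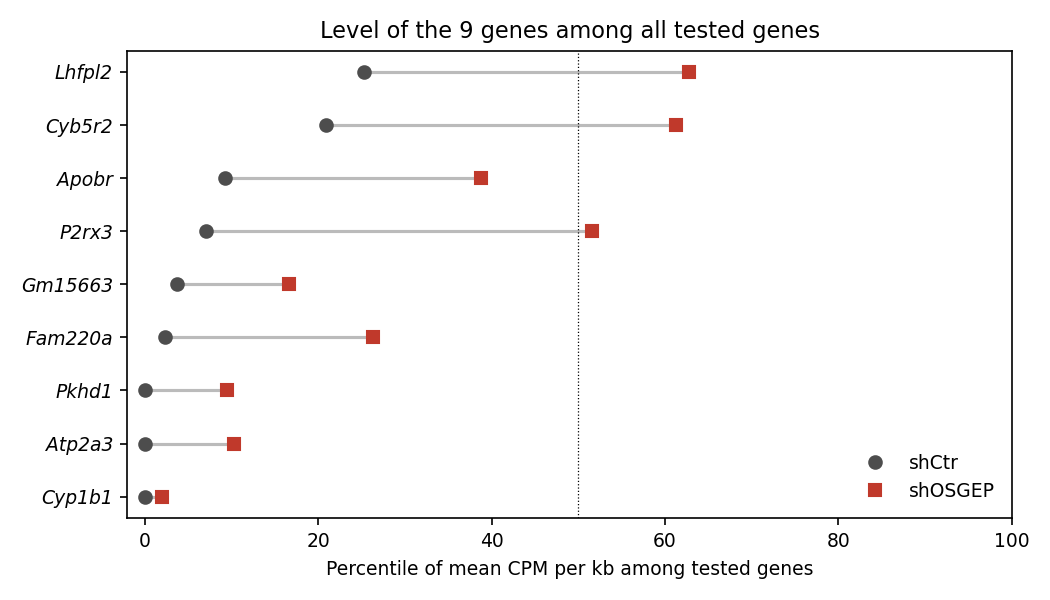
Percentile of each gene's mean CPM per kb among the tested genes, for shCtr (circles) and shOSGEP (squares), with a dotted line at the median gene. All 9 genes are below the median in shCtr, between percentile 0.0237 and 25.3, and 3 are above it in shOSGEP.

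Over the 9 genes the Log2FC ran from 2.44 to 4.60 with a median of 3.22, beside a median of -0.03 over all tested genes. All were among the 63 highest of the 12669 Log2FC. In TMM-scaled CPM all 9 also stayed without overlap, as did 3.49% of all tested genes (442), and all 9 had a Log2FC above 0.5 with an unadjusted p under 0.05, as did 1.59% of all tested genes. Nothing is read from these counts, since the same contrast chose the genes.

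The spread within shOSGEP was the main feature the selection did not fix. In 8 of the 9 genes the order of the knockdown libraries was replicate 2, then 1, then 3, an order also held by 257 of the 442 tested genes without overlap. Fam220a was the exception, with replicate 3 highest. Replicate 2 alone gave between 42.7% (Fam220a) and 79.3% (P2rx3) of the summed CPM of the 3 shOSGEP libraries. The coefficient of variation ran from 33.0% to 121% in shOSGEP and from 13.1% to 75.03% in shCtr, and was higher in shOSGEP for 8 of 9 genes. Its share over all tested genes was not counted, so this is not read as particular to the 9.

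Within replicate numbers, all 27 ratios of shOSGEP to shCtr were above 1, which the selection had required in plain CPM, before TMM scaling. Their size differed between the pairs: the median log2 ratio of the 9 genes was 2.18 in replicate 1 (2.02 to 5.34), 4.91 in replicate 2 (3.41 to 6.02) and 1.89 in replicate 3 (1.28 to 3.81). The same medians over all tested genes were -0.03, 0.09 and -0.01. Every one of the 9 genes had its highest ratio in replicate 2, and 7 had the lowest in replicate 3. The counting interval of the ratio in replicate 2 lay above those of both other pairs for 4 genes, Pkhd1, Apobr, Lhfpl2 and Cyb5r2. How many of all tested genes share these patterns was not counted, so they are not read as particular to the 9.

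Replicate 2 was also the pair with the lowest Osgep ratio (log2 -6.76), and shOSGEP replicate 2 was lowest for the summed melanocyte markers and for each of them but Mitf, a melanocyte transcription factor gene, which was low in both libraries of replicate 2 (29.3 CPM in shCtr and 30.6 CPM in shOSGEP, against 202 to 339 CPM in the other 4). The shCtr replicate 2 library also stood apart from the rest in its TMM scaling factor, 0.690 against 1.04 to 1.14. The 7 markers summed to 17029.7 to 29599.9 CPM in shCtr and to 3551 CPM in shOSGEP replicate 2, up to 18078 CPM in the other knockdown libraries. Premelanosome protein Pmel was at 3493, 13300 and 4559 CPM in shCtr and 3736, 485 and 4668 CPM in shOSGEP. The part of these differences between pairs in the levels of the 9 genes was not tested. Without shOSGEP replicate 2 the Log2FC of the 9 genes ran from 1.81 to 3.86 (median 2.44), without shCtr replicate 2 from 2.35 to 4.94 (median 3.07), and without both libraries of replicate 2 from 1.72 to 3.49 (median 2.16). With the replicate number as a block it ran from 2.22 to 4.14 (median 3.01).

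**Figure D4:**
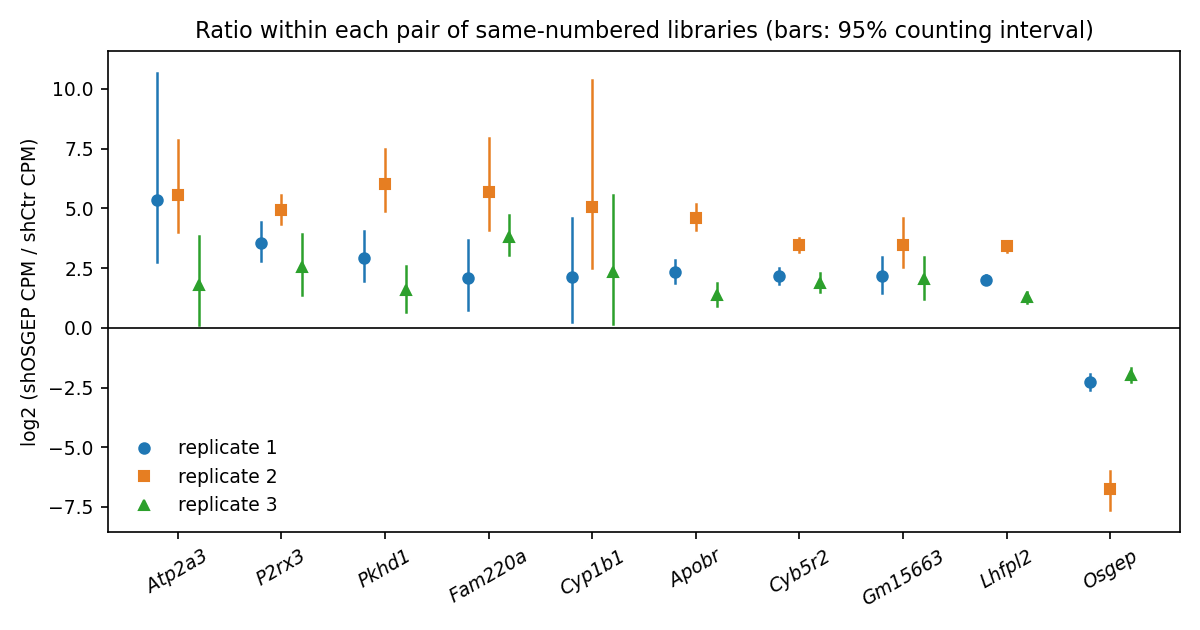
Log2 ratio of shOSGEP to shCtr within each pair of same-numbered libraries for the 9 genes and Osgep, with 95% exact counting intervals as bars. All ratios of the 9 genes are above 0 and highest in replicate 2 (squares), where the ratio of Osgep is lowest.

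Other features were compared without a test. The 9 genes lie on 8 chromosomes, with Apobr and Cyb5r2 both on chromosome 7. The share of ANN codons, which t6A-modified tRNAs read, ran from 21.9% (Fam220a) to 34.2% (Cyb5r2) over the 8 coding genes, with 3 genes between the quartiles of all tested genes (23.6% to 29.8%), 3 below and 2 above. The GC content of the longest transcript ran from 45.1% to 57.3%, against quartiles of 44.9% and 54.5%, and the median transcript length was 3685 bases against 3296 bases.

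Over the 6 libraries, the pairwise correlations of log2 CPM among the 9 genes ran from 0.62 to 1.00 (Pearson's r, 36 pairs, median 0.95), as a description of genes chosen on these same libraries. The tested genes outside the group whose log2 CPM followed the mean profile of the 9 most closely over the 6 libraries were Elovl3, Igdcc4, Ifit3, Cth and Epha1, with r from 0.99 to 1.00. Elovl3, a fatty acid elongase, was at 0.255, 0.197 and 0.231 CPM in shCtr and 0.837, 2.25 and 0.764 CPM in shOSGEP. Its shOSGEP libraries were all above the controls. Cth, the cystathionine gamma-lyase of cysteine synthesis, was at 11.9, 11.01 and 10.6 CPM in shCtr and 55.7, 164 and 28.6 CPM in shOSGEP. Ifit3, an interferon-induced gene, was at 11.3, 10.0 and 10.2 CPM in shCtr and 20.4, 36.0 and 16.3 CPM in shOSGEP. For both genes the groups did not overlap. Igdcc4, a cell surface immunoglobulin-domain protein gene, was at 1.83, 1.52 and 1.66 CPM in shCtr and 4.70, 7.59 and 3.22 CPM in shOSGEP. Epha1, an ephrin receptor kinase gene, was at 1.19, 0.639 and 0.830 CPM in shCtr and 4.33, 14.1 and 2.72 CPM in shOSGEP. All 5 shared the order of replicate 2, then 1, then 3 in shOSGEP, and depth, library and selection are shared by all points. Since the 5 were picked for following the 9 over these same libraries, their order and lack of overlap follow closely from that choice. Nothing is read from them. Of all tested genes, 3.49% (442) were higher without overlap, 257 of these in the same order.

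Paralogues and partners of the 9 genes were taken from 8 lists holding 99 genes, of which 58 were tested with edgeR's quasi-likelihood test. At the threshold of the study, a Log2FC beyond 0.5 with an unadjusted p under 0.05, 4 of the 58 rose and 0 fell, against 1.59% and 0.426% of all tested genes (202 and 54, or 267 and 24 with plain CPM). None of the 58 had an adjusted p under 0.05, as was the case for 0.0% of all tested genes by edgeR, and neither DESeq2 nor limma-voom called any of those they tested at that limit. At an unadjusted p under 0.05, each of the 3 tools passed 4, but not the same 4. Cyb5r1, Atp2b4 and Lhfp passed by all 3, Cyp1a1 by edgeR and limma-voom only, and P2rx5 by DESeq2 only. The median Log2FC of the 58 was -0.01, beside -0.03 over all tested genes.

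Of the aryl hydrocarbon receptor pathway, whose receptor switches on Cyp1 genes when it binds a ligand, 8 of 13 genes were tested, 1 rose and 0 fell, with a median Log2FC of 0.57. That gene was Cyp1a1, the classic target of the receptor, at 0.680, 1.23 and 0.830 CPM in shCtr and 4.05, 53.2 and 2.80 CPM in shOSGEP. Replicate 2 held most of its level in the knockdown, and the groups did not overlap. The Log2FC was 4.45 (SE 1.199, edgeR adjusted p = 1.00). It passed the study threshold under all 18 alternatives that gave it a value. DESeq2 returned no p-value for Cyp1a1, so that tool gives no call for it. The Log2FC of Cyp1a1 fell to 1.92 without shOSGEP replicate 2. Ahr, the receptor itself, was at 8.67, 1.33 and 10.5 CPM in shCtr and 20.1, 14.3 and 11.03 CPM in shOSGEP, without overlap, and did not pass the threshold (Log2FC 1.15, SE 0.724). It passed with GC and length offsets and under no other alternative run.

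Among calcium pumps and store channels, 13 of 21 genes were tested, 1 rose and 0 fell (median Log2FC -0.09). Atp2b4, a calcium pump of the plasma membrane, was at 2.51, 1.48 and 3.55 CPM in shCtr and 7.91, 7.56 and 5.05 CPM in shOSGEP, giving a Log2FC of 1.44 (SE 0.544, edgeR adjusted p = 1.00). Unlike the pump Atp2a3, its replicate 2 was not the highest knockdown library. Atp2a2, the housekeeping pump of the endoplasmic reticulum, was at 74.8 CPM per kb in shCtr and 59.98 CPM per kb in shOSGEP, where Atp2a3 was at 0.0271 and 0.675 CPM per kb. The Log2FC of Atp2a2 was -0.32.

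In the family of Lhfpl2, 1 of 5 genes was tested and it rose. Lhfp was at 9.86, 1.48 and 7.10 CPM in shCtr and 23.7, 48.7 and 13.4 CPM in shOSGEP, without overlap, with a Log2FC of 2.22 (SE 0.777, edgeR adjusted p = 1.00). With the replicate block Lhfp no longer passed the study threshold, at a Log2FC of 2.21. Among cytochrome b5 and its reductases, 8 of 8 genes were tested, 1 rose and 0 fell (median Log2FC 0.05). Cyb5r1, a reductase like Cyb5r2, was at 41.1, 81.5 and 33.2 CPM in shCtr and 116, 306 and 57.6 CPM in shOSGEP, where the groups overlapped, and its Log2FC was 1.62 (SE 0.673, edgeR adjusted p = 1.00).

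Calls other than that of Cyp1a1 changed when libraries were left out. Without shOSGEP replicate 2, 1 of the 4 genes passed, Cyp1a1, and without both libraries of replicate 3, 2 passed, Cyp1a1 and Lhfp. Without shCtr replicate 1, Cyb5r1 and Atp2b4 did not pass. Cyb5r1 did not pass without shCtr replicate 3, nor Atp2b4 without shOSGEP replicate 1 or without both libraries of replicate 1.

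In the other 4 lists no gene passed by edgeR with TMM scaling. Among the purinergic receptors, 6 of 17 genes were tested with a median Log2FC of -0.12. P2rx5, an ATP-gated channel like P2rx3, had the smallest p of them, at 0.935, 0.787 and 0.461 CPM in shCtr and 0.837, 6.36 and 1.02 CPM in shOSGEP (Log2FC 1.91, SE 0.886). Its groups overlapped. P2rx5 passed the study threshold under 6 of 19 alternatives, among them DESeq2 and no filter on low counts, and its Log2FC was 0.37 without shOSGEP replicate 2. Among the lipoprotein receptors and ligands (6 tested, median Log2FC -0.38), the gene with the smallest p was Apoe, a ligand of the lipoprotein receptors, at 451, 2171 and 492 CPM in shCtr and 389, 362 and 583 CPM in shOSGEP (Log2FC -1.22, SE 0.684). The shCtr replicate 2 library stood apart, and the Log2FC was -0.08 without it and 0.05 without both libraries of replicate 2, whereas Apoe passed the threshold without shCtr replicate 1. Lrp8, a receptor of the same list, passed only with GC and length offsets, with or without the replicate block. The genes with the smallest p were Pkd1 among the fibrocystin and polycystin genes (6 tested, Log2FC 0.42) and Ptpn6 among STAT3 and its regulators (10 tested, Log2FC -0.77), and neither passed under any of the 19 alternatives. The medians of these lists were 0.18 and -0.08.

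**Figure D5:**
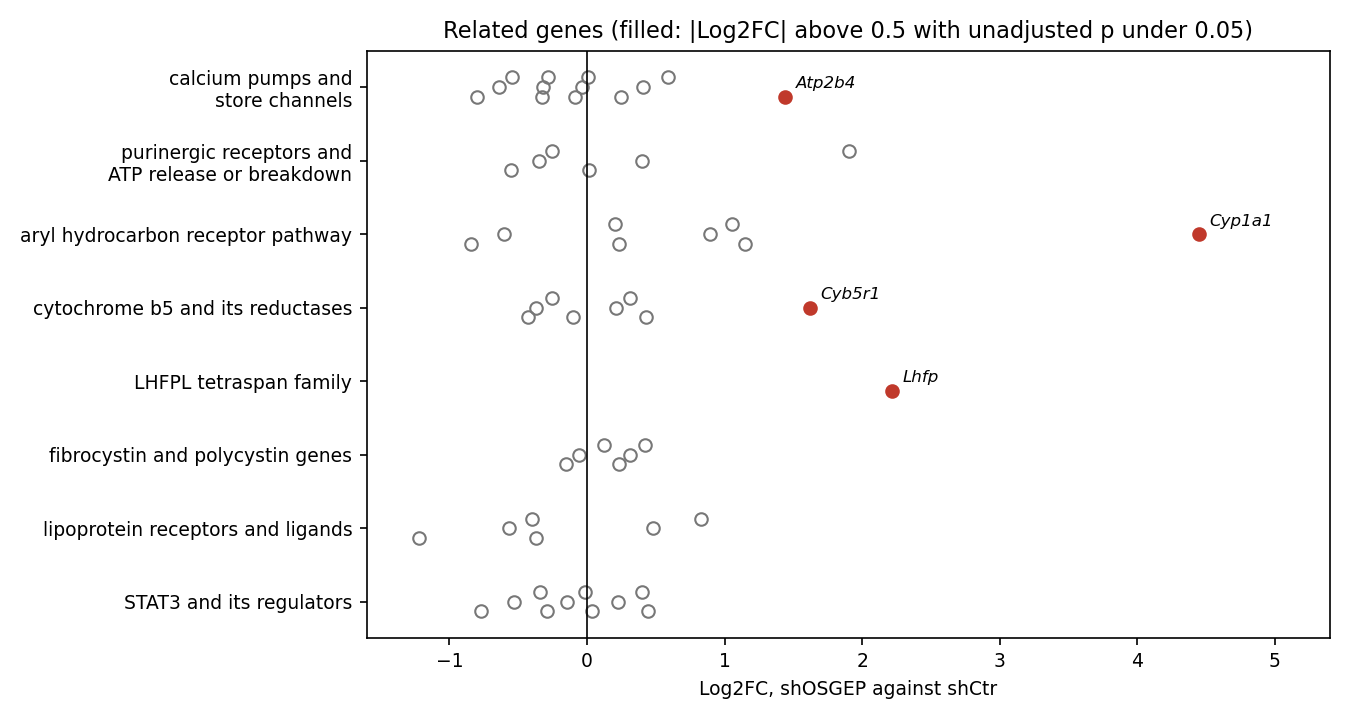
Log2FC of shOSGEP against shCtr for the 58 tested genes of the 8 lists, 1 point for each gene. The 4 filled and named points passed the study threshold and all lie above 0, with Cyp1a1 highest at 4.45.

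Of the genes around the 9 loci, 1 passed the study threshold, which uses an unadjusted p. Within 50 kb of the 9 genes lie 36 other genes, of which 15 were tested. Of these, 1 rose and 0 fell at the study threshold, against 1.59% and 0.426% of all tested genes. None had an adjusted p under 0.05 by edgeR, DESeq2 or limma-voom (1, 1 and 3 at an unadjusted p under 0.05). In all, 6 of 15 had a Log2FC above 0, with a median of -0.15, beside -0.03 over all tested genes. The gene that rose was Nupr1, a stress-induced nuclear protein gene whose span lies 34137 bases from Apobr. Nupr1 levels were 15.98, 16.7 and 12.4 CPM in shCtr against 45.1, 205 and 28.3 CPM in shOSGEP, without overlap and with a Log2FC of 2.63 (SE 0.760, edgeR adjusted p = 1.00). Without shOSGEP replicate 2 its Log2FC was 1.30 and it still passed the study threshold.

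The library kit does not mark strand, so reads where genes overlap on opposite strands cannot be told apart. Tested genes overlap 4 of the 9 on the opposite strand, beside the second Fam220a entry on the same strand. Cln3, which overlaps Apobr, was at 4.76, 10.5 and 7.42 CPM in shCtr and 4.42, 2.17 and 6.28 CPM in shOSGEP, and Ppfibp2, which overlaps Cyb5r2, at 22.1, 32.5 and 24.2 CPM and 13.5, 20.7 and 16.6 CPM. In both, the knockdown mean was the lower. They had negative Log2FC, -0.82 (SE 0.580) and -0.63 (SE 0.418), opposite in sign to the gene they overlap. Ppfibp2 passed the study threshold by limma-voom and with GC and length offsets plus the replicate block, but not by edgeR with TMM scaling and no block. Ssrp1, which overlaps P2rx3, had a Log2FC of -0.15 (SE 0.389).

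Tmtc2, which overlaps Gm15663 on the opposite strand, had a Log2FC of the same sign as that gene. Its levels were 4.76, 0.688 and 3.74 CPM in shCtr and 11.8, 5.46 and 6.11 CPM in shOSGEP, without overlap, with a Log2FC of 1.35 (SE 0.741). By edgeR with TMM scaling and no block it did not pass the study threshold. It did pass by limma-voom, with the replicate block, with GC and length offsets, and with those offsets and the block together. Of the 31-base words of Gm15663, 4.05% occur in Tmtc2.

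Among the marker lists of other cell types, fibroblast markers were the only one higher without overlap in its sum, at 5.65 to 17.8 CPM in shCtr and 19.8 to 28.5 CPM in shOSGEP. Of the 6 markers, Col3a1, Dcn and Lum were at or near 0 in all libraries, and Pdgfrb, Postn and Pdgfra made up the sum. Pdgfrb was without overlap, at 8.11, 4.42 and 9.17 CPM in shCtr and 12.98, 15.3 and 11.4 CPM in shOSGEP. Postn was at 6.97, 0.590 and 4.56 CPM against 12.9, 6.36 and 6.79 CPM and Pdgfra at 2.68, 0.639 and 2.03 CPM against 2.605, 4.07 and 1.57 CPM, both with overlap. Col1a1, a collagen gene outside the list, was at 0.127, 0.442 and 0.369 CPM in shCtr and 1.16, 2.44 and 0.721 CPM in shOSGEP, without overlap and past the study threshold (Log2FC 2.20, SE 0.742). The part of this in the levels of the 9 genes was not tested. The 5 endothelial markers summed to at most 0.349 CPM in any library.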

How the data were processed

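Total RNA of B16F10 cells was converted to polyA libraries (Illumina TruSeq v2, no strand information) and sequenced in pairs. In the authors' nf-core/rnaseq run, TrimGalore removed adapters, STAR 2.6.1d mapped reads to GRCm38 and Salmon 1.4.0 estimated gene counts. The deposited values are estimated counts for each gene and library, written as whole numbers, without normalization. Salmon shares reads that match several genes by likelihood.

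Genes were kept by filterByExpr (minimum count 10), libraries were scaled by TMM, and edgeR 4.0.16 (R 4.3.3) fitted the quasi-likelihood model with no block (two-sided), and p-values were adjusted by Benjamini-Hochberg over 12669 tested genes. SE are the Log2FC divided by the square root of F. The scripts were tested on simulated data with less spread between libraries than here and no pair effect. That test does not show how they perform at the spread of these data. Depth was 18915587 to 29487384 counts per library. The floor was 3 counts, and 95% intervals of ratios are exact (Clopper-Pearson) and cover counting error only, since the reads carry no molecular identifiers.

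The members, gene lists and tests were chosen with earlier results of these data known. Named genes were the 9 members and Osgep, in each list and among neighbours each gene past the study threshold or else that with the smallest p, tested neighbours overlapping a member, and the 5 genes most correlated with the mean member profile. Ahr, Atp2a2, Lrp8, Itpr3, Col1a1 and the single marker genes were named after their values were seen. Gene positions, GC content and coding sequences came from GENCODE M21 (GRCm38), and promoters from RefSeq (GRCm38.p6).

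Same-numbered shCtr and shOSGEP libraries deviated together from their group means (r across genes 0.811, 0.557 and 0.196, each above the limit of 0.1), so the numbers were taken to pair the libraries. The highest r between different numbers was 0.491 (shCtr replicate 3 with shOSGEP replicate 1). That of shCtr replicate 2 with shOSGEP replicate 3 was 0.138. Both are above the limit too, so the limit alone does not single out the pairs. What a number marks is not given in the labels, beyond 3 independent infections. Alternatives were DESeq2 1.42.0, limma 3.58.1 (voom with quality weights), other scalings and filters, GC and length offsets, a replicate block and leaving out libraries. The sum of both Fam220a entries and the median without Fam220a were chosen after seeing the data.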

Additional observations from a re-analysis of the deposited data

How the results depend on the processing

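The median Log2FC of the 9 genes ran from 2.16 without replicate 2 to 3.79 without replicate 1 when libraries were left out, 2.30 by limma-voom, 3.26 by DESeq2, 3.01 with the replicate block, 3.63 without Gm15663 and 3.21 without Fam220a. The selection fixed their direction in plain CPM, and every setting uses the genes so chosen, so no support is drawn from it. The 166 single values of the 9 genes under alternatives ran from 1.72 to 5.46, and 2 moved by more than the spread over pairs, Cyb5r2 (1.84) and P2rx3 (2.71) without shOSGEP replicate 2. Requiring 10 counts in every library left 4 of the 9 genes in the test, and 8 were without overlap when both Fam220a entries were summed. Under the other alternatives all 9 were without overlap. The selection fixes this only in plain CPM, but the genes were chosen for it, so nothing is read from it. Related genes past the study threshold numbered 4, and 1 to 5 when libraries were left out. With the replicate block 3 passed, 6 with GC and length offsets (Ahr and Lrp8 added), and 6 with both (Lrp8 and Itpr3 added, Ahr not past it). Neighbouring genes past the threshold numbered 1, and 1 to 2 when libraries were left out. They numbered 2 with the replicate block, 2 with GC and length offsets, 3 with both, 3 by limma-voom, and 0 within 10 kb. At an adjusted p under 0.1, 0 related and 0 neighbouring genes passed by edgeR (4 and 1 at an unadjusted p under 0.05; 0 and 0 by DESeq2 and limma-voom at 0.05). Osgep stayed below 0, from -4.05 to -2.11 when libraries were left out. Over all genes, limma-voom passed 3, DESeq2 17 and edgeR 0 at an adjusted p under 0.05, and the study threshold passed 202 higher and 54 lower by edgeR, 328 and 142 by DESeq2, 424 and 136 by limma-voom, 267 and 24 by plain CPM, 294 and 79 with the replicate block, and 54 and 13 without shOSGEP replicate 2. They were 430 and 169 without a filter, 431 and 203 with GC and length offsets (477 and 346 with the replicate block added), 266 and 187 without shCtr replicate 1, 108 and 59 without shCtr replicate 3, 274 and 116 without shOSGEP replicate 3 and 108 and 55 without both libraries of replicate 3. Plain CPM moved the median Log2FC of all tested genes from -0.03 to 0.15. The cause of these changes was not tested. Counts of 1 to 4 in shCtr limit the precision for Atp2a3 and Cyp1b1.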
